A study of Mus musculus with 24 samples.

Results

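The change of each transcript from the late 2-cell stage (L2C) to the morula was compared between mouse embryos with a Zfp622 knockout and wild-type embryos. The quantity tested was the interaction, the log2 difference of knockout from wild type at morula minus the same difference at L2C. A positive interaction means that a transcript rose more or fell less in the knockout, and a negative one that it rose less or fell more. Of 18864 genes tested, 2010 passed at an adjusted p of at most 0.05 (edgeR quasi-likelihood test, Benjamini-Hochberg adjusted over all genes), which is 10.7%. The interaction was positive in 1216 genes (6.45% of those tested) and negative in 794 (4.21%). These 2 percentages are the background for every gene list described here.

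The interaction used 16 of the 24 libraries of the series, 4 in each of 4 groups. All embryos were B6D2F1, from superovulated females 3 to 4 weeks old. Knockout embryos came from zygotes that received Cas9 protein with 3 guide RNAs against Zfp622 and were cultured in KSOM medium. Control embryos are labelled wild type and titled NC, an abbreviation that is not spelled out. Whether control zygotes were injected is not stated. Each library was polyadenylated RNA of 10 pooled embryos, so that a knockout library can hold embryos with different edits. Where a group is named, the numbers of its libraries are those of the titles. The remaining 8 libraries are Ttf1 knockout embryos at the same stages; they entered the model only as groups that share its estimate of spread, and once as a comparison.

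ZFP622 is the mammalian relative of yeast Rei1, a cytoplasmic factor that removes other assembly factors from the immature large ribosomal subunit, so that the subunit can enter translation. Between the 2-cell stage and the morula the mouse embryo clears most transcripts inherited from the oocyte and the brief burst of transcripts of the 2-cell stage. It builds up the transcripts of growth, compaction and the first lineages over the same period. Unbound ribosomal proteins can bind MDM2, the ubiquitin ligase that destroys p53, and p53 then switches on genes of cell cycle arrest, feedback and cell death.

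Zfp622 itself lies on the plus strand of chromosome 15 (chr15:25984366-25998481, GRCm38). At L2C its level was 151, 162, 166 and 167 CPM (counts scaled to a common library size with TMM factors) in the wild-type libraries and 52.1, 86.5, 42.8 and 60.4 in the knockout libraries. At morula it was 72.7, 60.6, 64.0 and 58.6 in wild type and 21.5, 20.5, 24.2 and 7.45 in the knockout. Knockout and wild-type libraries did not overlap at either stage. The knockout difference was -1.42 on the log2 scale at L2C (adjusted p = 0.0187, edgeR) and -1.79 at morula (adjusted p = 2.9e-05), and the interaction of -0.37 did not pass (adjusted p = 0.524). A transcript can stay after a small insertion or deletion, so these levels do not measure loss of the protein.

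The libraries carried the transcripts of their labelled stages. Oocyte and 2-cell markers had their high levels at L2C, such as Gdf9 with means of 70.7 CPM in wild type and 75.2 in the knockout against 0.974 and 1.92 at morula, and Zscan4d with 79.8 and 61.3 against 0.449 and 2.96. Lineage markers had theirs at morula, such as Nanog with 761 and 404 CPM against 0.891 and 0.806, and Pou5f1 with 130 and 127 against 12.6 and 14. Total counts ran from 10538723 to 17807596 per library. All 16 libraries carry the same lane number, and 3 wild-type libraries (number 4 at L2C and numbers 3 and 4 at morula) have an extra number in their alignment name. It is called the second or additional index number here, but what it stands for is not stated. The labels describe each library as its own pool, and the p-values rest on the spread over these pools. In pools of whole embryos, fewer cells of a type and less RNA per cell cannot be told apart.

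Genes that differed between the genotypes were almost all found at morula. At L2C the knockout differed from wild type in 6 genes (0.0318%; 1222 had an unadjusted p under 0.05), 4 higher (0.0212%) and 2 lower (0.0106%). At morula it differed in 4177 genes (22.1%), 2431 higher (12.9%) and 1746 lower (9.26%). Of the 2010 genes, 1850 also passed at morula in the direction of their interaction, and 3 passed at L2C. Tfcp2l1 and Tes were among these 3. In 1694 of the 2010 the 4 knockout and 4 wild-type morula libraries did not overlap, against 25.5% of all genes tested. The morula difference is a part of the interaction, so the counts of 1850 and 1694 are partly fixed by how the 2010 genes were chosen. The L2C difference is the other part, and in 1493 of the 2010 its sign was opposite to that of the morula difference. The way the 2010 were chosen also favours opposite signs, and the share over all genes tested was not counted. At L2C the libraries of 3.21% of all genes did not overlap (1.68% higher and 1.54% lower in the knockout). The median interaction was 1.51 among positive genes and -0.68 among negative ones, against 0.06 over all genes tested. A log2 size of at least 1 was reached by 862 positive and 170 negative genes.

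Between the stages 84% of the genes tested changed in wild type (37.9% rose, 46.1% fell) and 82.6% in the knockout (38.2% rose, 44.4% fell). Most of the 2010 genes changed in the same direction in both genotypes but by a smaller amount in the knockout. The largest class, 768 genes (38.2%), fell from L2C to morula in wild type and fell less in the knockout. Its median wild-type change was -4.19 on the log2 scale and its median knockout change -2.11. In another 162 genes the fall was absent or turned into a rise. The next class, 476 genes (23.7%), rose in wild type and rose less in the knockout, with median changes of 2.02 and 1.24, and in 61 the rise was absent or turned. Larger changes in the knockout were fewer, with 169 genes that rose more and 156 that fell more. The remaining genes had no wild-type change that passed; 117 of them rose and 101 fell in the knockout. Over all 18864 genes tested, whatever their interaction, 5722 fell less in the knockout, 4340 rose less, 2663 rose more and 2700 fell more. The class that rose less thus had about the same share among the 2010 as over all genes tested.

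The wild-type libraries enter both the interaction and the wild-type change that names these classes. The same 2010 genes were therefore also sorted by the stage change of the Ttf1 knockout, which shares no library with the interaction and in which 38.1% of all genes rose and 43.6% fell. Sorted this way, 663 falling genes had a positive interaction (930 by wild type) and 415 rising genes a negative one (537). There were 353 rising genes with a positive interaction (169 by wild type) and 271 falling genes with a negative one (156). Genes that fell less or rose less still made up more of the 2010 than genes that rose more or fell more, by a smaller margin. Smaller changes also outnumbered larger ones over all genes tested when sorted by wild type. Shares over all genes were not counted for the Ttf1 sorting, so it does not show an excess particular to the 2010.

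**Figure D1:**
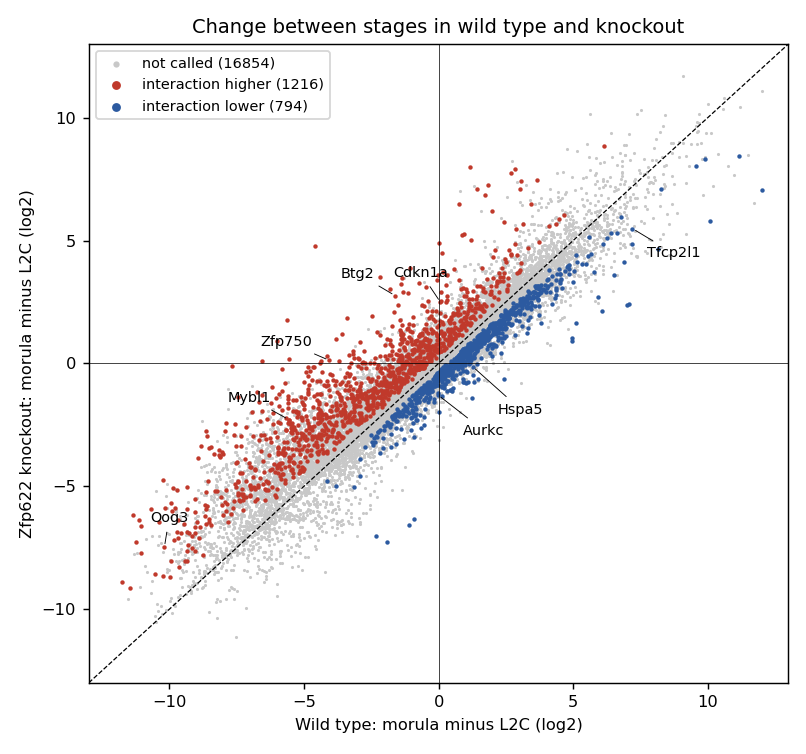
Fitted log2 change from L2C to morula in wild type (horizontal axis) and in the Zfp622 knockout (vertical axis), one point per gene tested, with an equal change on the dashed line. Red points, the 1216 genes with a positive interaction, lie above the line mostly among falling genes, and blue points, the 794 with a negative one, lie below it mostly among rising genes.

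A single library stood out among the 4 knockout morula libraries. Library 4 was the highest of the 4 in 701 of the 1216 positive genes (57.6%, against 31.5% of all genes tested). It was the lowest in 522 of the 794 negative genes (65.7%, against 24.1%). The same library had the lowest Zfp622 level, 7.45 CPM. Without it 1339 genes passed, and 1305 of them were among the 2010. Without the 3 wild-type libraries that carry a second index number 646 genes passed (473 positive, 173 negative), and 623 of them were among the 2010.

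**Figure D2:**
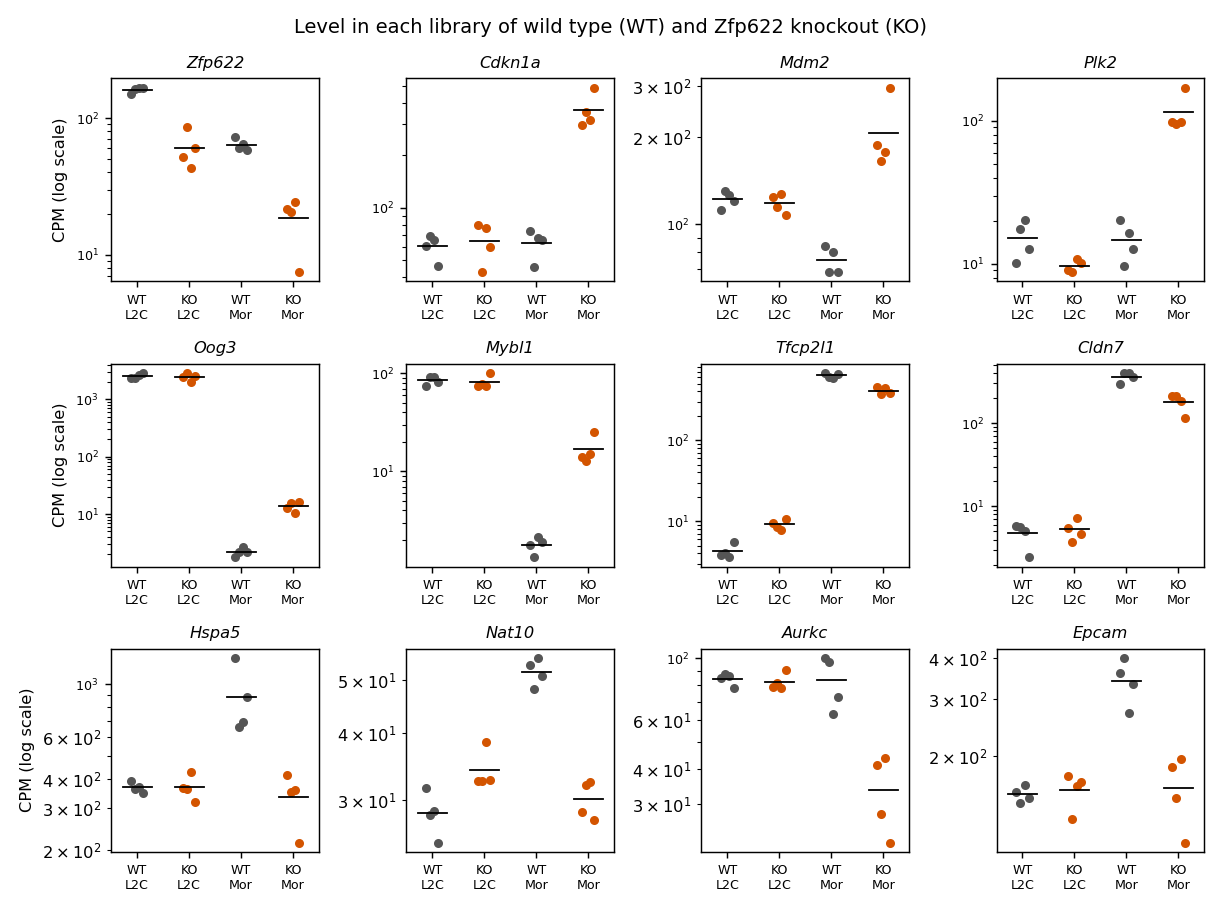
Level in CPM, on log axes, of 12 genes in each library of the 4 groups, with points for libraries and lines for means. For Cdkn1a, Plk2, Oog3 and Mybl1 the knockout morula libraries lie above all wild-type morula libraries, and for Tfcp2l1, Cldn7, Nat10 and Aurkc below them.

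Many transcripts inherited from the oocyte fell less in the knockout. Of 83 listed maternal oocyte transcripts, 77 passed the filter on low counts; 29 of these had a positive interaction, 2 a negative one and 46 did not pass. Their median interaction was 1.19, against 0.06 over all genes tested. Oog3, a member of the oocyte-specific oogenesin family, stood at 2383, 2404, 2701 and 2854 CPM in wild-type L2C and at 2500, 2904, 1990 and 2517 in knockout L2C. At morula it had fallen to 1.76, 2.15, 2.63 and 2.21 CPM in wild type and to 12.7, 15.9, 10.6 and 16.4 in the knockout. The morula groups did not overlap, and the interaction was 2.71 (SE 0.21, adjusted p = 1.09e-08, edgeR), higher in 4 of 4 knockout libraries. As a share of its own L2C level, 0.0846% was left in wild type and 0.561% in the knockout.

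Other maternal transcripts followed the same course at different depths. Omt2b, another oocyte transcript, fell from a mean of 4450 to 2.97 CPM in wild type and from 4410 to 11.6 in the knockout, an interaction of 1.97. Npm2, the histone chaperone that opens sperm chromatin in the egg, fell from 75 to 4.18 CPM in wild type and from 74.6 to 9.21 in the knockout, an interaction of 1.14. Kit, the receptor tyrosine kinase of germ cells, had an interaction of 1.19, and Nlrp5, a protein of the subcortical maternal complex, one of 1.40. Btg4, an adaptor of the deadenylase that removes maternal messenger RNA, fell from 786 to 0.76 CPM in wild type and from 685 to 1.66 in the knockout, an interaction of 1.29 (adjusted p = 0.0294) with overlapping morula groups.

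Over all 77 maternal transcripts tested, the median share of the L2C level left at morula was 1.20% in wild type and 2.58% in the knockout. Over the 28 that fell in wild type and had a positive interaction, a direction that their choice fixes, the knockout shares ran from 0.174% to 12.4%. H1foo, the linker histone of the oocyte, passed with an interaction of 1.34 (adjusted p = 0.0273). The interaction of H1foo was lost without wild-type morula library 3 or 4, without knockout morula library 1, 2 or 4, and without the wild-type libraries that carry a second index number (adjusted p = 0.0573 to 0.303). Its knockout level at morula, a mean of 0.90 CPM against 0.598, overlapped wild type. Its L2C level was lower in the knockout, with means of 31.2 and 52.9 CPM. Zp3, a protein of the zona pellucida, and Gdf9, a growth factor of the oocyte, did not pass (interactions of 0.45 and 0.85, adjusted p = 0.194 and 0.0502).

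Dppa3 (Stella), which protects the maternal genome from demethylation, rose between the stages. Wild-type morulae held 5572, 5127, 5495 and 5365 CPM and knockout morulae 6967, 8021, 7094 and 8786, from L2C means of 3974 and 3539. The knockout morula libraries all lay above wild type, and the interaction was 0.69 (adjusted p = 4.23e-04, edgeR). The 2 maternal transcripts with a negative interaction were Dnmt1, the maintenance DNA methyltransferase (-0.68), and Nlrp4c (-1.93). Nlrp4c rose from L2C to morula in wild type, from 9.61 to 48.6 CPM, and reached 17.9 in the knockout.

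**Figure D3:**
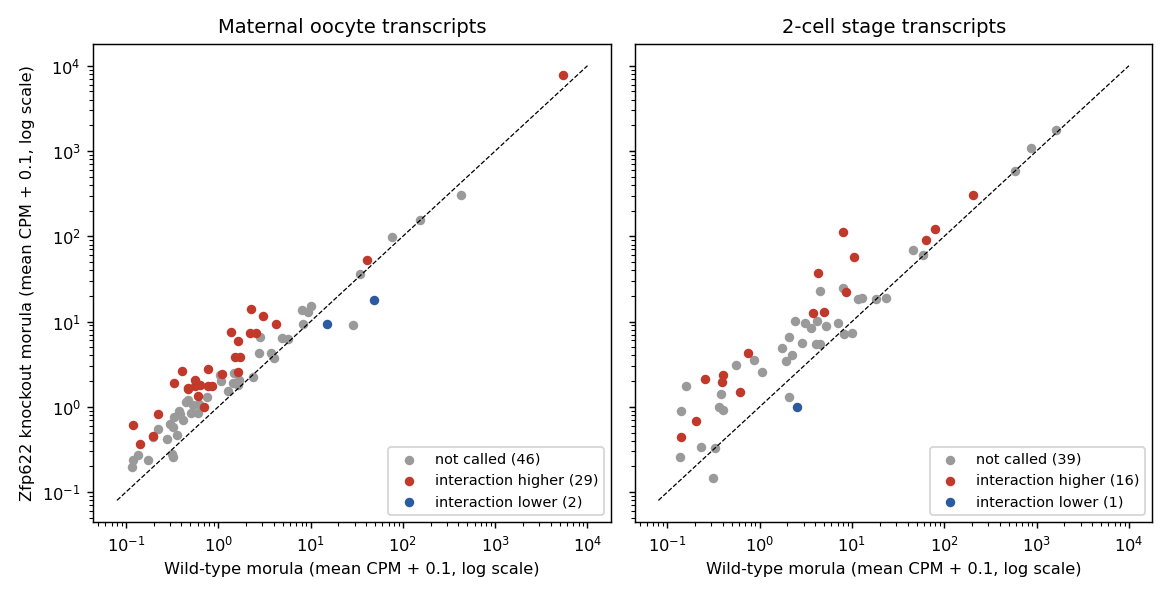
Mean level at morula in wild type (horizontal axis) against the knockout (vertical axis) for the 77 maternal oocyte transcripts and the 56 transcripts of the 2-cell stage that were tested, in CPM plus 0.1 on log axes. Points above the dashed line of equality were higher in the knockout, and those with a positive interaction (red, 29 and 16) lie mostly at low wild-type levels.

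Transcripts of the 2-cell burst come next. Of 69 listed, 56 were tested; 16 had a positive interaction, 1 a negative one and 39 did not pass, with a median interaction of 1.29. Tdpoz4, a speckle-type POZ protein gene of the 2-cell stage, was at 133, 112, 144 and 160 CPM in wild-type L2C and at 97.6, 174, 95.9 and 97.0 in the knockout. At morula 4.35, 3.14, 4.41 and 2.75 CPM remained in wild type and 13.7, 12.1, 14.8 and 9.29 in the knockout, an interaction of 2.01 (adjusted p = 0.00104, edgeR) with no overlap. Over all 56 tested, a median of 4.20% of the L2C level was left at morula in wild type and 14% in the knockout.

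Usp17ld and Usp17le, deubiquitinase genes of a tandem family, had interactions of 3.28 and 3.07. Fgf1, a fibroblast growth factor, had one of 1.42 and Arg2, the mitochondrial arginase, one of 1.51. Zscan4c and Zscan4d, the best known genes of the 2-cell burst, did not pass (adjusted p = 0.214 and 0.219). Zscan4d averaged 2.96 CPM in knockout morulae and 0.449 in wild type, and the groups overlapped. Oog, Omt2, Nlrp4, Usp17l and Zscan4 genes have near-identical copies, and the authors did not count reads that map to several places, so the level of a single copy is uncertain.

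Without knockout morula library 4 the positive counts were 22 maternal and 14 2-cell transcripts. Without the wild-type libraries that carry a second index number they were 16 and 7, while the medians of 1.00 and 1.26 stayed near the full values. Library 4 was the highest knockout morula library in 20 of the 29 maternal transcripts.

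Summed levels of the markers of other cell types were higher in knockout than in wild-type morulae without overlap, and overlapped between genotypes at L2C. For cumulus and granulosa cells the sum was 79.7 to 102 CPM in knockout and 53.7 to 64.6 in wild-type morulae, for sperm 35.0 to 50.1 against 22.1 to 28.1, and for blood 47.6 to 59.1 against 28.3 to 35.4. The first 2 sums fell between the stages in both genotypes, and the blood sum rose, from means of 19.1 CPM in wild type and 17.1 in the knockout. At 0 in all morula libraries of both genotypes were 3 of 33 cumulus, 6 of 25 sperm and 8 of 20 blood markers. Of 33 cumulus markers 12 were tested and 1 passed (Hsd17b7, also an enzyme of sterol synthesis, 0.77), and Cyp19a1 and Has2 were at 0 in all morula libraries. Among 25 sperm markers 7 were tested and 2 passed (Ldhc and Prm2), and Smcp was at 0. Of 20 blood markers 8 were tested and 2 passed (Cd68 and Hba-a1), and the leukocyte marker Ptprc was at 0 in all morula libraries. Most of the cumulus sum at morula was Amhr2, Hsd17b1 and Hsd17b7, with means of 20, 11.6 and 13.3 CPM in wild type. Their knockout means were 25.4, 27.8 and 19.3 CPM, while Col4a1 and Star were lower in knockout morulae. Hsd17b1 was at 0.196 and 0.233 CPM at L2C. Most of the sperm sum at morula was Odf2, at 21.5 CPM in wild type and 28.2 in the knockout, and Tex101 had 1.3 and 5.93. Most of the blood sum at morula was Cd68 and Spi1, with means of 11.8 and 16 CPM in wild type and 29 and 12.9 in the knockout. Among the markers tested, the interaction was above 0 in 9 of 12 for cumulus, 7 of 7 for sperm and 6 of 8 for blood. The share of counts from the mitochondrial genome was 2.79% to 3.69% in knockout and 2.24% to 2.45% in wild-type morulae. The number of genes with a count was 23436 to 24257 against 22810 to 23288. The part of these differences in the maternal and 2-cell results was not tested.

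The single genes with the smallest p-values outside the lists were also falling ones. Mybl1 encodes A-MYB, a transcription factor of germ cells. Its L2C levels were 74.9, 91.0, 92.2 and 82.4 CPM in wild type and 73.7, 78, 74.9 and 101 in the knockout. At morula it stood at 1.76, 1.32, 2.13 and 1.91 CPM in wild type and at 13.9, 12.8, 14.9 and 25.4 in the knockout, an interaction of 3.27 (adjusted p = 4.38e-07, edgeR) without overlap. Zfp750, a zinc finger factor of epidermal differentiation, fell in wild type from 8.88, 12.5, 10.1 and 9.71 CPM to 0.502, 0.661, 0.497 and 0.764. Its knockout change did not pass, with 10.1, 10.0, 6.86 and 8.60 CPM at L2C and 9.81, 9.89, 6.55 and 12.7 at morula, and its interaction was 4.19 (adjusted p = 1.09e-08).

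Lztfl1, a regulator of protein traffic at the primary cilium, fell in wild type to 22.6, 21.5, 20.7 and 21.6 CPM and in the knockout to 44.7, 59.2, 55.1 and 64.8, from means of 79.3 and 77.2. Its interaction was 1.41 (adjusted p = 8.04e-07). Epm2a, which encodes the glycogen phosphatase laforin, behaved alike, with an interaction of 1.85 and no overlap at morula. Ldhb, the heart form of lactate dehydrogenase and a member of the glycolysis list, kept 6.51, 6.81, 6.30 and 7.74 CPM in knockout morulae against 2.76, 2.81, 2.98 and 2.06 in wild type, an interaction of 1.62 (adjusted p = 1.7e-05).

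The p53 targets had the highest share of members with an interaction among the lists examined. Of 65 listed targets 58 were tested; 30 had a positive interaction (background 6.45%), 1 a negative one and 27 did not pass. The median interaction was 0.90. At morula alone 45 of the 58 were higher in the knockout (background 12.9%), and at L2C none passed in either direction (background 0.0318%). In wild type the same genes had no common course, with a median stage change of 0.185.

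Of the p53 targets with a positive interaction, 8 hold a match to the p53 decamer within 250 bases before the start. The decamer is the 10-base consensus that occurs as a pair in a full p53 site. The upstream sequence of the 6 with the largest interactions is shown, and Ei24 (0.61) and Rps27l (0.55) are left out. The decamer is palindromic, so both strands were covered, and overlapping matches were counted. Sequences are from RefSeq (GRCm38.p6) and read 5′ to 3′ on the strand of the gene, with 25 bases on each side and the match in capitals.
Cdkn1a: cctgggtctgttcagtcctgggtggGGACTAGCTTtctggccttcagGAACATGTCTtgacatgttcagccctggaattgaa
Mdm2: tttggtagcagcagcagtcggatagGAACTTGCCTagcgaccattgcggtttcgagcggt
Gadd45a: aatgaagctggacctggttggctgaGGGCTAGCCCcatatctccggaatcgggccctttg
Ccng1: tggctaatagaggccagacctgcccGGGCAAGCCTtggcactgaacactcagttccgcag
Ppm1d: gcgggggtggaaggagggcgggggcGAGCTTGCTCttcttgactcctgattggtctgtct
Wrap53: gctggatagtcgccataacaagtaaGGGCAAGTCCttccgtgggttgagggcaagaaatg

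The Cdkn1a stretch (chr17:29090881-29090962, plus strand) carries 2 decamers close enough for a full site. The others carry 1 each and lie on chr10:117710910-117710969 for Mdm2, chr6:67037413-67037472 for Gadd45a, chr11:40755437-40755496 for Ccng1 and chr11:69580259-69580318 for Wrap53, all on the minus strand, and on chr11:85311097-85311156 for Ppm1d on the plus strand. All lie upstream of the annotated transcript start. Within 250 bases before the start, a decamer occurred in 7.13% of all 32851 RefSeq windows and in 6.21% of windows of the genes tested. The share was 8.36% for genes with a positive interaction, 5.37% for those with a negative one, 13 of 65 windows (20%) for all p53 targets tested, and 8 of 32 (25%) for those with a positive one. A match is a description of the letters, and the table used here does not reach introns or distant sites.

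Among the targets of arrest and feedback, Cdkn1a encodes p21, the inhibitor of cyclin-dependent kinases that p53 induces. Wild-type levels were 60.5, 68.8, 65.3 and 46.8 CPM at L2C and 74.1, 46.1, 67.4 and 65.4 at morula. Knockout levels went from 80.3, 42.8, 77 and 59.4 CPM to 297, 355, 316 and 487. All 4 knockout morula libraries lay above all others, with an interaction of 2.42 (SE 0.33, adjusted p = 1.36e-04, edgeR).

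Mdm2 fell in wild type, from 112, 130, 127 and 120 CPM to 84.3, 68.3, 80 and 68.5. In the knockout it rose instead, from 124, 115, 127 and 107.4 CPM to 187, 165, 178 and 296, an interaction of 1.501 (adjusted p = 1.03e-05) with no overlap at morula. Trp53inp1, a p53-induced protein of the nuclear bodies where p53 is modified, fell in wild type from 221, 211, 229 and 185 CPM to 67.3, 47.9, 55.1 and 64.4. The knockout kept 179, 191, 152 and 295 CPM at morula from 213, 220, 198 and 231 at L2C, an interaction of 1.77 (adjusted p = 7.19e-06).

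Plk2, a kinase of the cell cycle and a p53 target, was at 20.2, 9.59, 16.6 and 12.8 CPM in wild-type morulae and at 98.5, 95.6, 97.8 and 171 in knockout morulae. At L2C it stood at 10.1, 17.4, 20.2 and 12.7 CPM in wild type and at 9.05, 8.73, 10.8 and 10.1 in the knockout, groups that overlapped, and the interaction was 3.61 (adjusted p = 3.62e-06). Btg2, an antiproliferative gene that is also on the 2-cell list, had the largest interaction that passed among the p53 targets, 4.37 (adjusted p = 7.02e-05). Wild-type morulae held 9.96, 8.10, 9.66 and 4.20 CPM and knockout morulae 110, 57.2, 82.2 and 195, after 25.4, 19, 38.2 and 15.3 and 13.5, 13.7, 16.4 and 22.2 at L2C.

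Ccng1, a cyclin that feeds back on MDM2, rose in both genotypes and more in the knockout, from means of 18.1 to 89.1 CPM in wild type and of 30.0 to 307 in the knockout, an interaction of 1.06 (adjusted p = 0.0169). This call was lost without the wild-type libraries that carry a second index number (adjusted p = 0.0869). Mdm4, the partner of MDM2, had an interaction of 0.65 and Ppm1d, the phosphatase that ends p53 signalling, one of 0.78. Sesn2, a sestrin that restrains growth signalling, fell from 83.2 to 8.71 CPM in wild type and from 87.7 to 22.2 in the knockout, an interaction of 1.27.

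Among targets of cell death, Pmaip1, which encodes the BH3-only protein NOXA, was at 11.2, 12.7, 14.4 and 10.3 CPM in wild-type L2C and 10.6, 7.63, 6.66 and 9.89 in knockout L2C. At morula it was at 18.2, 16.9, 12.7 and 11.5 CPM in wild type and 80.9, 64.5, 62.7 and 112 in the knockout, an interaction of 2.91 (adjusted p = 4.38e-07, edgeR) with no overlap. Bbc3, which encodes PUMA, rose to a mean of 3.41 CPM in the knockout against 0.582 in wild type (interaction 2.199, adjusted p = 0.0109). Apaf1, the scaffold of the apoptosome, fell less in the knockout (0.81). Fas, the death receptor, averaged 3.88 CPM in knockout and 0.0565 in wild-type morulae and passed at morula (adjusted p = 1.7e-05) but not in the interaction (adjusted p = 0.303), since both L2C groups were near 0. Bax, the effector of outer membrane permeability, did not pass (-0.31, adjusted p = 0.274).

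Over the whole list of BCL2 proteins and caspases, with 30 of 39 members tested, 4 were positive (Pmaip1, Bbc3, Apaf1 and Bik), 3 negative and 23 did not pass. The negative ones were Casp6, an executioner caspase that rose from 11.5 to 238 CPM in wild type and from 16.7 to 134 in the knockout (-1.37), and the inhibitors of apoptosis Birc3 (-0.74) and Birc5 (-0.37). Among targets of DNA repair, Ercc5 (1.30), Gadd45a (1.34) and Rrm2b (1.06) had positive interactions. Ddb2, the damage sensor of nucleotide excision repair, was the single target with a negative one, -0.98, as its level fell in the knockout from 18.4 to 9.80 CPM while wild type held 15.1 and 15.9.

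**Figure D4:**
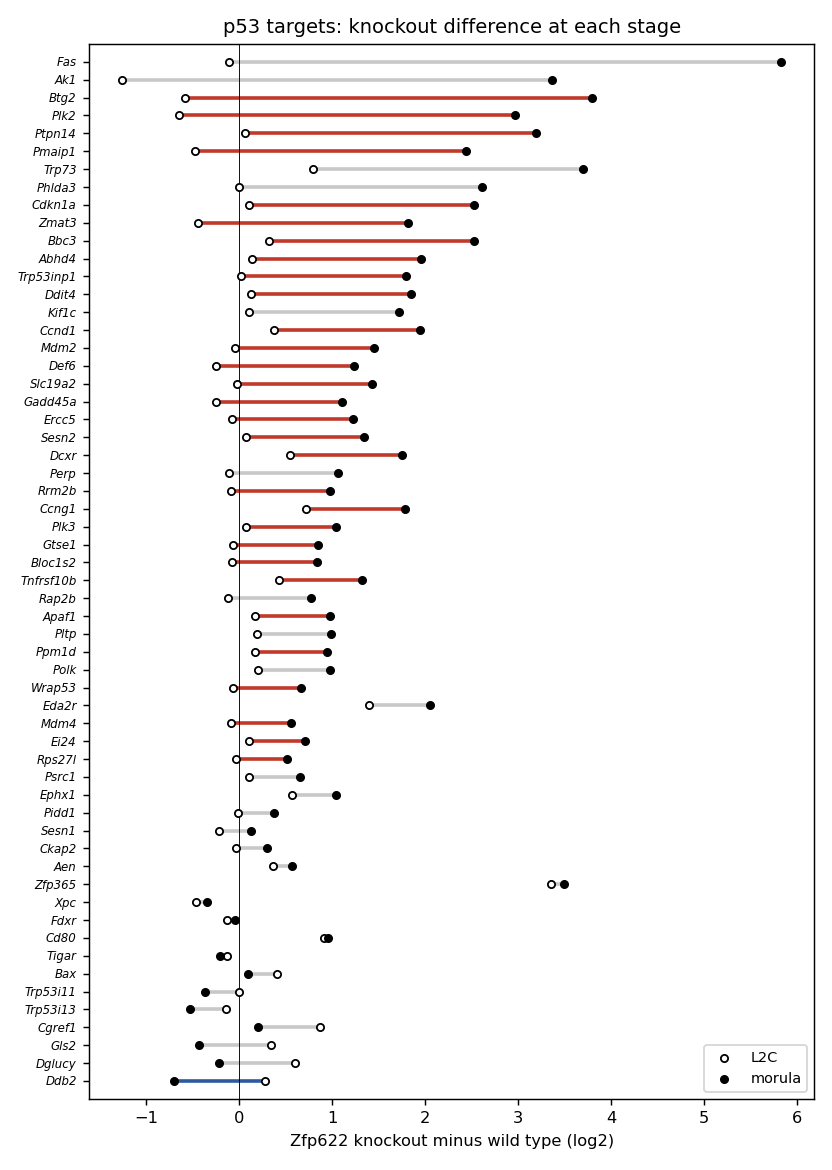
Log2 difference of knockout from wild type at L2C (open circles) and morula (filled circles) for the 58 p53 targets tested, fitted by edgeR, with a red line for a positive interaction (30), a blue line for a negative one (1) and grey for the rest. Most open circles lie near 0 and most filled circles to the right of it.

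Knockout morula library 4 was the highest of the 4 in 27 of the 30 positive p53 targets. Without it 22 targets had a positive interaction and the median was 0.77, and without the wild-type libraries that carry a second index number 19 did and the median was 0.92. Cdkn1a, Mdm2, Plk2, Pmaip1, Btg2 and Trp53inp1 passed under every alternative run at adjusted p of at most 0.05.

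Part of the protein synthesis and folding machinery was lower in knockout morulae relative to its normal course. Among the factors that assemble the small ribosomal subunit, 63 of 67 were tested; 19 had a negative interaction (background 4.21%), none a positive one (background 6.45%), and the median was -0.21. Nat10, the acetyltransferase of 18S ribosomal RNA, rose in wild type from 31.7, 28.2, 28.6 and 25.1 CPM to 53.3, 48.1, 54.9 and 50.9. In the knockout it went from 32.6, 32.6, 38.5 and 32.7 CPM to 28.5, 32.1, 32.5 and 27.6. No knockout morula library overlapped wild type, and the interaction was -1.04 (SE 0.16, adjusted p = 1.18e-04, edgeR).

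Other negative members belong to the small subunit processome, the particle that folds and cuts the early ribosomal RNA precursor. Wdr3 rose from 80.4 to 238 CPM in wild type and from 82.4 to 157 in the knockout (-0.63), and Pwp2 (-0.76), Utp18 (-0.54) and Ddx47 (-0.69) also passed. Leaving out 1 library at a time left 13 to 20 negative members. Without the wild-type libraries that carry a second index number 4 were negative and 1 positive, with a median of -0.18.

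The large subunit was less affected by count. Of the 63 nucleolar assembly factors 7 were negative and 3 positive, with a median of -0.15. The largest was Cebpz, a nucleolar factor that fell from 117 to 89.8 CPM in wild type and from 116 to 50.4 in the knockout (-0.82, adjusted p = 2.01e-04). Of the 25 factors listed under late maturation, 23 were tested, with 3 negative and none positive. That list is wider than the step at which ZFP622 acts, and its members need not act on the large subunit alone. Heatr3, which carries newly made RPL5 to its assembly site, rose in wild type from 92.5, 102.9, 95.4 and 93.8 CPM to 157, 150, 160 and 149. Its knockout levels went from 120, 101, 123 and 106.7 CPM to 110, 110, 110 and 102, an interaction of -0.74 (adjusted p = 9.19e-05, edgeR) with no overlap at morula. Nob1 (-0.36) and Hspa8 (-0.45) passed as well but were lost when any of several single libraries was left out.

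All 82 cytosolic ribosomal proteins were tested, with a median stage change of 2.34 in wild type and 2.44 in the knockout. Their median interaction was 0.115, against 0.06 over all genes tested. At morula alone 17 were higher in the knockout (background 12.9%) and 1 lower (background 9.26%). In 79 of the 82 the interaction did not pass, and 3 were positive, among them Rps27l (0.55), which is also a p53 target, and Rpl41 (0.30). None of the 3 passed without knockout morula library 4 or without the second-index libraries, and 1 did without wild-type L2C library 2, 3 or 4 or wild-type morula library 2 or 4. Of 28 RNA polymerase I genes 1 was negative, the subunit Polr1b (-0.66), and 1 positive. Among 51 translation factors 5 were negative, including the release factor Etf1 (-0.39) and the initiation factors Eif3a (-0.40) and Eif1a (-0.39), and 1 was positive. Of 20 noncoding hosts of small nucleolar RNAs 4 were positive (Snhg15 0.83, Dancr 0.73, Snhg1 0.64 and Gas5 0.43) and Snhg11 negative (-1.44). These short lists depended on single libraries. Leaving out 1 at a time left 4 to 10 negative nucleolar factors (4 without wild-type morula library 3) and 3 to 8 negative translation factors (3 without wild-type L2C library 3, wild-type morula library 3 or knockout L2C library 3, 8 without wild-type or knockout L2C library 2). It left 1 to 6 positive small nucleolar RNA hosts, with 1 left without wild-type L2C library 4, wild-type morula library 1, knockout L2C library 3 or knockout morula library 4. Of the late factors 1 was negative without wild-type L2C library 3, wild-type morula library 3 or 4, knockout L2C library 1 or knockout morula library 4. Without the second-index libraries 1 nucleolar factor, 1 late factor and 0 translation factors were negative, and 1 small nucleolar RNA host was positive.

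Of 40 heat shock proteins and other chaperones 11 were negative and 2 positive. Hspd1, the mitochondrial chaperonin HSP60, rose from 74.1 to 656 CPM in wild type and from 64.1 to 354 in the knockout (-0.68), and Dnaja1, a co-chaperone of HSP70, reached 6543 CPM in wild type and 4773 in the knockout (-0.57). Cct3, Cct5, Cct6a and Tcp1, subunits of the TRiC chaperonin, were also negative. The positive pair was Hspa1a and Hspa1b, the stress-induced HSP70 genes, which are near-identical to each other. Hspa1b was at 1.17, 1.07, 2.77 and 1.53 CPM in wild-type morulae and 10.4, 7.93, 12.1 and 11.8 in knockout morulae, from 5.95, 2.92, 5.30 and 3.90 and 5.01, 5.02, 3.56 and 2.84 at L2C. The morula groups did not overlap, and the interaction was 2.80 (adjusted p = 1.33e-04, edgeR).

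In the endoplasmic reticulum 6 of 37 genes of the unfolded protein response were negative and none positive, with a median of -0.24. Hspa5, the chaperone BiP, rose in wild type from 390, 362, 367 and 348 CPM to 1294, 662, 691 and 884. Knockout libraries stood at 364, 362, 426 and 318 CPM at L2C and at 416, 352, 358 and 214 at morula. The morula groups did not overlap, and the interaction was -1.40 (adjusted p = 0.0253), a call that was lost without wild-type morula library 1, wild-type L2C library 3, knockout L2C library 3, knockout morula library 4 or the libraries that carry a second index number. Derl1, a channel of protein disposal from the reticulum, had an interaction of -0.84 and P4hb, a disulfide isomerase, one of -0.41.

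Of 46 proteasome genes tested 7 were negative and none positive, with a median of -0.23. Psmd2, a subunit of the regulatory base, rose from 58.5 to 480 CPM in wild type and from 61.4 to 344 in the knockout (-0.55, adjusted p = 0.00301). Leaving out 1 library at a time changed these counts. The unfolded protein response had 1 to 6 negative members, with 1 left without wild-type morula library 1, 3 without knockout L2C library 1, and 2 without wild-type L2C library 3, knockout L2C library 3 or knockout morula library 4. The proteasome had 4 to 15, the fewest without knockout L2C library 3, the most without knockout L2C library 2 and again 4 without knockout morula library 4. Chaperones had 6 to 12, with 6 left without wild-type L2C library 3 and 7 without wild-type morula library 3 or knockout morula library 4. Without the wild-type libraries that carry a second index number the negative counts were 2 for chaperones and 0 for the other 2 lists, and the medians stayed between -0.18 and -0.22.

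**Figure D5:**
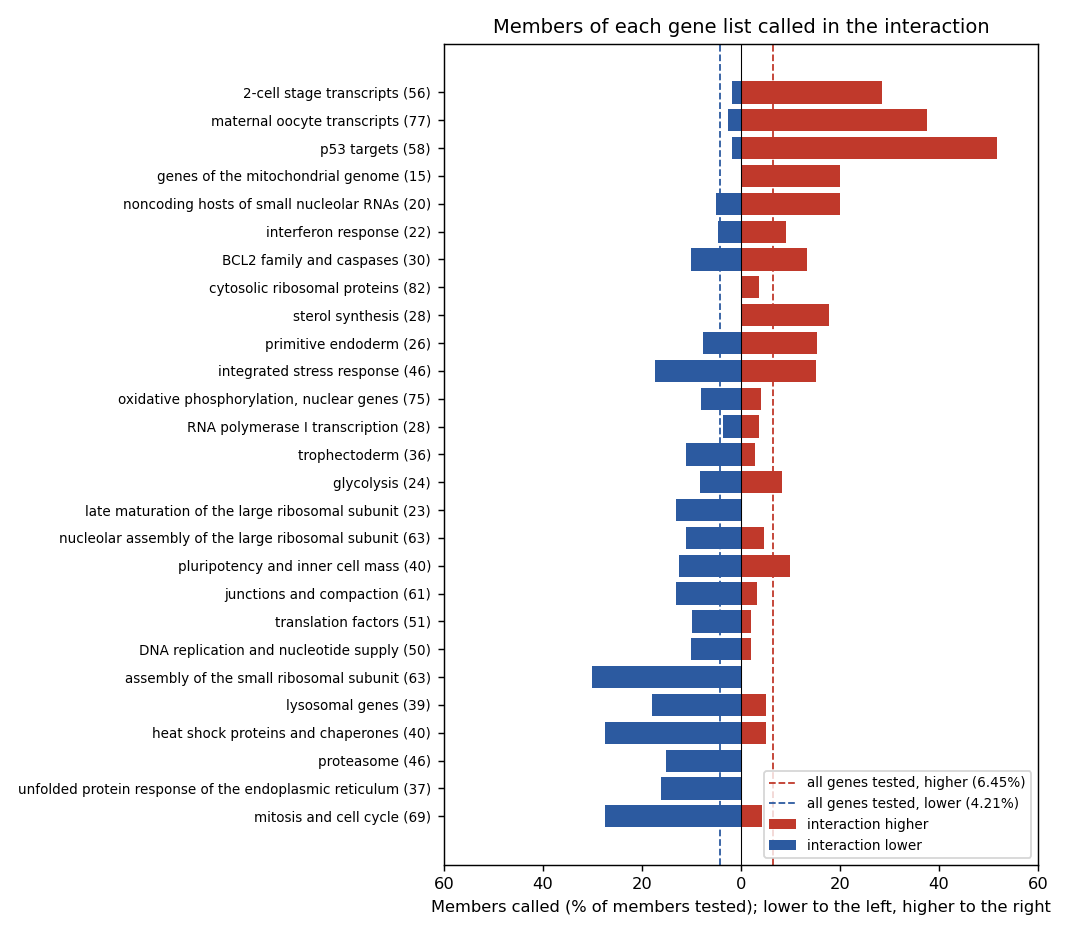
Share of the tested members of each gene list with a positive interaction (red, to the right) or a negative one (blue, to the left), in percent, with the number tested in parentheses and lists ordered by median interaction. The dashed lines mark the shares over all genes tested, 6.45% and 4.21%, and p53 targets, maternal and 2-cell transcripts extend furthest to the right.

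All 69 listed genes of mitosis and the cell cycle were tested; 19 had a negative interaction, 3 a positive one and 47 did not pass, and the median was -0.29. Aurkc, the Aurora kinase of germ cells and early embryos, was level in wild type, with 84.9, 88.0, 86.5 and 78.4 CPM at L2C and 100, 97.3, 63.3 and 72.5 at morula. Knockout levels fell from 79.2, 81.6, 78.4 and 91.0 CPM to 41.5, 27.6, 43.9 and 21.9, an interaction of -1.27 (adjusted p = 5.17e-04, edgeR) without overlap at morula. Its relatives Aurka (-0.56) and Aurkb (-0.53) passed too.

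Other negative genes act from entry into mitosis to cytokinesis. They were Plk1 (-0.59), Bub1 of the spindle checkpoint (-0.595), Tpx2 of the spindle (-0.40), Cenpa of the centromere (-0.34) and Anln of the cleavage furrow (-0.55). The cyclin E genes moved in opposite directions. Ccne1 fell from 616 to 332 CPM in the knockout and from 602 to 525 in wild type (-0.70), whereas Ccne2 reached 91.4 CPM in knockout and 43.5 in wild-type morulae from 65.0 and 65.2 (1.07).

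Spc25, a component of the NDC80 kinetochore complex, was the other mitotic gene with a positive interaction beside the cyclin genes Ccne2 and Ccnd1 (1.58, also a listed p53 target). It fell in wild type from 288, 311, 262 and 246 CPM to 74.6, 66.7, 77.3 and 63.5. Knockout levels fell from 264, 299, 305 and 283 CPM to 140, 141, 144 and 192, an interaction of 1.07 (adjusted p = 1.75e-04, edgeR) with no overlap. Of 50 genes of DNA replication and nucleotide supply 5 were negative, among them the helicase subunit Mcm6 (-0.72) and the replication factor Mcm10 (-0.70), and 1 was positive.

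Library 4 was the lowest knockout morula library in 15 of the 19 negative mitotic genes. Without it 12 mitotic genes were negative. For the replication list 2 or 3 were negative without any of wild-type L2C libraries 1 and 3, wild-type morula libraries 1, 3 and 4, knockout L2C libraries 1 and 3 and knockout morula library 4. Without the wild-type libraries that carry a second index number 3 mitotic and 0 replication genes were negative, with medians of -0.27 and -0.17.

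Lineage genes showed no common direction. Of 40 tested genes of pluripotency and the inner cell mass 5 were negative, 4 positive and 31 did not pass; without wild-type L2C library 4, knockout L2C library 4 or knockout morula library 4, 2 were negative, and 3 were without wild-type L2C library 2. Without knockout morula library 3, 2 were positive. Without the second-index libraries 2 were negative and 2 positive. Tfcp2l1, a transcription factor of naive pluripotency, had the smallest p of all genes with a negative interaction. Wild-type levels rose from 3.87, 4.02, 3.58 and 5.55 CPM to 680, 599, 592 and 655. Knockout levels rose from 9.60, 8.59, 7.78 and 10.6 CPM to 451, 370, 441 and 381, and the groups overlapped at neither stage. The gene was higher in the knockout at L2C (1.10) and lower at morula (-0.62), and the interaction was -1.72 (SE 0.19, adjusted p = 1.21e-06, edgeR).

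Nanog rose in wild type from 1.15, 1.34, 0.746 and 0.330 CPM to 794, 726, 733 and 792 and in the knockout from 0.241, 0.756, 1.38 and 0.840 to 435, 386, 556 and 239. The morula groups did not overlap and differed (-0.91, adjusted p = 0.0250, edgeR), but the interaction of -0.78 had an SE of 0.78 and did not pass (adjusted p = 0.576), since the L2C levels were near 1 CPM. Pou5f1 did not pass (-0.19, adjusted p = 0.547). Sox2, at means of 2.91 CPM in wild-type and 0.919 in knockout morulae, had an interaction of -1.83 (adjusted p = 0.0331) that was lost when any of 8 single libraries was left out. Klf17, a factor of the 2-cell stage, fell less in the knockout, from 442 to 52.6 CPM against 454 to 22.0 in wild type (1.29).

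Of 36 trophectoderm genes tested 4 were negative and 1 positive, against 2 and 0 without the second-index libraries. Gata3, a transcription factor of the trophectoderm, rose in wild type from 3.44, 5.29, 5.45 and 5.41 CPM to 76.6, 81, 85.5 and 80.5. Knockout levels rose from 4.34, 7.97, 7.25 and 6.01 CPM to 57.2, 53.3, 61.3 and 43.7, an interaction of -0.97 (adjusted p = 0.0242, edgeR) with no overlap at morula. The interaction of Gata3 no longer passed without wild-type L2C library 1 or without knockout morula library 4 (adjusted p = 0.0512 and 0.0552), nor without the second-index libraries (0.109). Cdx2 was at 0 in all knockout L2C libraries, so no fold is given; its morula means were 8.56 CPM in wild type and 6.01 in the knockout.

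In the primitive endoderm list, with 26 of 37 tested, 4 were positive and 2 negative. The positive count was 1 without knockout morula library 4 and 2 without wild-type L2C library 2 or 3 or the second-index libraries. The negative count was 5 without knockout L2C library 2, 0 without the second-index libraries, and 1 without wild-type L2C library 4, wild-type morula library 1, 2 or 3, knockout L2C library 1 or 3, or knockout morula library 1 or 4. Apoe, which encodes the lipid carrier apolipoprotein E, rose from 9.81, 9.70, 8.06 and 8.71 CPM to 14.7, 15.1, 14.4 and 18.8 in wild type. In the knockout it rose from 14.7, 9.42, 9.16 and 9.05 CPM to 48.3, 45.3, 59.8 and 79.3, an interaction of 1.66 (adjusted p = 1.84e-04, edgeR) with no overlap at morula. Gata6, the master factor of that lineage, did not pass (0.35, adjusted p = 0.525).

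Of 61 genes of cell junctions and compaction 8 were negative and 2 positive, with a median of -0.18. Epcam, an adhesion protein of epithelia, went from 155, 143, 162 and 148 CPM to 359, 401, 270 and 333 in wild type. Knockout libraries stood at 172, 127, 161 and 166 CPM at L2C and at 184, 148, 196 and 107.8 at morula, an interaction of -1.14 (adjusted p = 0.00174, edgeR) with no overlap. Cldn7, a claudin of tight junctions, reached 293, 401, 397 and 354 CPM in wild type and 212, 212, 183 and 115 in the knockout from 5.87, 5.68, 5.00 and 2.44 and 5.49, 3.78, 7.25 and 4.72 at L2C. The interaction of Cldn7, -1.17 (adjusted p = 0.0240), was lost without knockout L2C library 3 (adjusted p = 0.0624) and without the second-index libraries (adjusted p = 0.137). Ctnnb1, the beta-catenin of adherens junctions, had an interaction of -0.45 and Gja1, the gap junction protein connexin 43, one of -1.02, while Cdh1, the E-cadherin of compaction, did not pass (-0.18, adjusted p = 0.528). With 1 library left out at a time 4 to 9 junction genes were negative: 4 without wild-type L2C library 3, wild-type morula library 3, knockout L2C library 1 or knockout morula library 2 or 4, and 5 without wild-type L2C library 2 or 4 or wild-type morula library 4. Without the wild-type libraries that carry a second index number 1 was.

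Genes of the integrated stress response moved in both directions. Of 46 tested 7 were positive, 8 negative and 31 did not pass. Without the second-index libraries 4 were positive and 1 negative. Positive members included the stress factors Atf3 (4.24), Atf4 (0.51) and Ddit4 (1.72), the asparagine synthetase Asns (1.00) and the kinase Eif2ak1 (0.78). Negative members were enzymes of serine and one-carbon metabolism, namely Phgdh (-1.23), Shmt2 (-1.11), Psat1 (-0.54) and Mthfd2 (-0.52), and the transfer RNA synthetases Lars (-0.86), Sars (-0.68), Eprs (-0.60) and Nars (-0.54). Ddit4 and Sesn2 are also listed p53 targets.

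Lysosomal genes were negative in 7 of 39 and positive in 2, and without the second-index libraries 1 was negative and 1 positive. Sqstm1, the autophagy receptor p62, rose in wild type from 15.8, 19.3, 11.5 and 11.9 CPM to 270, 338, 333 and 264. Knockout libraries rose from 19.6, 15.3, 26.4 and 20.7 CPM to 222, 150, 181 and 136, an interaction of -1.29 (adjusted p = 0.00263, edgeR) with no overlap at morula. Map1lc3a, an LC3 protein of the autophagosome, went the other way, from 225, 216, 234 and 184 CPM to 251, 292, 325 and 314 in wild type and from 239, 208, 234 and 204 to 562, 586, 580 and 615 in the knockout. Its interaction was 0.94 (adjusted p = 1.68e-05).

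In the metabolic lists the share of members that passed was not below the 10.7% of all genes tested. It was 12% for nuclear genes of oxidative phosphorylation, 16.7% for glycolysis, 20% for mitochondrially encoded genes and 17.9% for sterol synthesis. Among 75 nuclear genes of oxidative phosphorylation 6 were negative and 3 positive, and among 24 of glycolysis 2 and 2. Without the second-index libraries 2 were negative and 1 positive in the first list, and 0 and 2 in the second. Only wild-type L2C libraries 1 and 4, wild-type morula library 1, knockout L2C library 4 and knockout morula libraries 1 and 3 could each be left out with 2 glycolysis genes still negative. Of the 15 mitochondrially encoded genes 3 were positive (mt-Cytb, mt-Nd2 and mt-Rnr2, 0.42 to 0.47), and DESeq2 called none of these 3. None of the 15 passed without the second-index libraries, nor without any 1 of wild-type L2C libraries 1, 3 and 4, wild-type morula libraries 1, 2 and 4, knockout L2C library 3 and knockout morula libraries 1 and 4. Without wild-type morula library 3, 1 passed, and without knockout morula library 3, 6 did. Of 28 sterol synthesis genes 5 were positive and none negative, with 3 positive without knockout morula library 4 and 2 without the second-index libraries. Sc5d (1.03), Idi1 (0.80) and Fdft1 (0.62), enzymes of the pathway, were among them.

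Interferon response genes, with 22 of 35 tested, gave 2 positive and 1 negative. The negative count was 0 with total counts, without the second-index libraries and without any of several single libraries, such as wild-type L2C library 1. Cxcl10, a chemokine, was at 0.335, 0.827, 0.355 and 0.458 CPM in wild-type and at 14.8, 18, 9.74 and 17.5 in knockout morulae, from 2.79, 1.10, 2.31 and 0.726 and 4.47, 0.756, 0.725 and 1.36 at L2C. Its interaction was 4.81 (adjusted p = 0.00162, edgeR) without overlap at morula. H2-D1, a classical class I histocompatibility gene, passed in every alternative run and is not the negative member counted here. It rose in wild type from 6.37, 5.29, 3.73 and 5.35 CPM to 62.5, 80.7, 68.9 and 65.6. In the knockout it rose from 11.8, 5.22, 7.58 and 7.95 CPM to 33.8, 33.4, 34.0 and 28.1, an interaction of -1.76 (adjusted p = 9.78e-05, edgeR).

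The largest positive interactions were of genes that were nearly silent in wild-type morulae. Bbs7, a subunit of the BBSome of cilia, was at 0.251, 0.744, 0 and 0.229 CPM in wild-type and 13.5, 5.22, 8.43 and 38.0 in knockout morulae, from L2C means of 1.37 and 1.42 (interaction 5.69, adjusted p = 1.83e-04, edgeR). Nectin4, an adhesion protein, was at 0, 0.827, 1.56 and 0.229 CPM in wild-type and 16.6, 6.81, 8.10 and 30.5 in knockout morulae (5.75, adjusted p = 0.00944). Both sets of morula libraries were apart, and library 4 was the highest in each. Cd81, a tetraspanin, and Mlana, a melanosomal protein, had the same form, with means of 15.9 and 7.93 CPM in knockout against 0.592 and 0.296 in wild-type morulae.

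Among falling genes, Hnmt, Fkbp14, Gabra3 and Itga8 were at 0 in all wild-type morula libraries, and knockout means there were 0.320, 0.327, 0.261 and 0.262 CPM. Their L2C means were 24.8, 11.4, 21.2 and 8.74 CPM in wild type and 23.5, 9.27, 21.7 and 8.83 in the knockout, and no fold is given for them.

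The most negative interactions were of 2 kinds. In some genes the difference lay at morula, as in Slc25a21, a mitochondrial carrier of oxodicarboxylates that rose from 1.76 to 17 CPM in wild type and from 2.70 to 6.29 in the knockout (-2.05, adjusted p = 2.43e-04, edgeR). Xlr3b, an X-linked gene with close copies, was at 9.79, 7.94, 3.77 and 4.58 CPM in wild-type and 2.02, 1.87, 3.03 and 0.774 in knockout morulae, from 2.36, 2.37, 2.16 and 2.51 and 2.35, 3.64, 2.57 and 3.69 at L2C (-2.12, adjusted p = 0.00665). Polr3e, a subunit of RNA polymerase III, fell in both genotypes and more in the knockout, to 15.5, 13, 16.7 and 14.6 CPM against 27.7, 31.4, 41.0 and 30.8, from means of 65.4 and 59.8 (-1.26, adjusted p = 5.62e-05).

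In others the difference lay in very low L2C levels. Dusp3 and Serpinb6c were at 0 in all wild-type L2C libraries and averaged 0.112 and 0.189 CPM in the knockout, while their morula means were 10.4 and 39.6 CPM in wild type and 6.82 and 27.0 in the knockout. Cish, Msrb2, Lmf1 and Apob had wild-type L2C means of at most 0.219 CPM as well, and their morula differences did not pass.

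In O-GlcNAc transferase, Ogt, the rise was replaced by a fall. Wild type went from 183, 151, 166 and 177 CPM to 231, 217, 238 and 294, and the knockout from 214, 187, 191 and 189 to 147, 138, 147 and 118. The morula groups did not overlap, and the interaction was -1.04 (adjusted p = 2.35e-05, edgeR), with an adjusted p of at most 9.14e-04 in every alternative run.

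Positive and negative genes differed in build. Protein-coding genes made up 95.2% of the negative and 79.3% of the positive genes, against 75.1% of all genes tested. The median exonic length was 4883.5 bases in negative and 2961 in positive genes, against 3352.5 over all, and the median number of exon blocks 12 and 6 against 7. The share that passed ran from 8.82% on chromosome 5 to 12.2% on chromosome 14 among autosomes.

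The stage change of the Zfp622 knockout was also set against that of the Ttf1 knockout, which targets the termination factor of RNA polymerase I and uses none of the wild-type libraries. By edgeR 1 gene of 18864 differed (0.0053%), while 2041 had an unadjusted p under 0.05. DESeq2 called 155. That gene, ENSMUSG00000079808 on the unplaced scaffold GL456212.1, had a difference of -0.65 (adjusted p = 0.0275) and was named after its value was seen. All Ttf1 libraries carry another lane number than the Zfp622 libraries, so lane and knockout cannot be told apart in this comparison. An interaction that did not pass does not show that the stage changes were alike.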

How the data were processed

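Messenger RNA was measured in 24 libraries of 10 pooled mouse embryos. The deposited values are raw gene counts: per the file headers, featureCounts 2.0.1 counted paired reads over exons of Ensembl release 99 (GRCm38), with no option for strand or for reads that map to several places. The submitters' processing notes name HISAT2 2.2.1 for alignment. Groups were taken from titles. Genotype and strain labels whose final number increases from library to library were not used. Gene symbols were found for 55144 of 55471 identifiers.

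One model was fitted to all 24 libraries in edgeR 4.0.16 (R 4.3.3) with filterByExpr, TMM scaling and the robust quasi-likelihood test, and p-values were adjusted over 18864 genes with a threshold of 0.05. Total counts ran from 10538723 to 17807596. On simulated data the interaction test recovered 14.9%, 70.1% and 95.5% of 1.5-, 2- and 4-fold changes among 18864 genes.

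The genes and lists were chosen with earlier results of these data known. Named genes were, at 5 CPM or more in some group, the 12 with the largest change in each direction, 4 per class and 4 per list by smallest p, and a few marker genes; other list members were named after their values were seen. Other scalings, filters, DESeq2 1.42.0, a replicate block, each library left out and the wild-type libraries with an additional index left out were tried. Counts of list members under these alternatives were added after seeing the data. Some genes are not reported here.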

Additional observations from a re-analysis of the deposited data

Results flagged for a closer look

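The effect of the knockout differed between morula and L2C by the interaction test in 1216 genes with a higher and 794 genes with a lower value. In all, 168 groups of 4 libraries were examined, for the genes given by library and also for library totals and marker sums. Of these, 15 had 1 library far from the other 3 by Dixon's criterion, where chance flags about 1 in 20. All 15 were for genes.

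In knockout morulae library 4 was the distant one for 6 genes. It held 296 CPM of Mdm2 (the others 164.7 to 187), 170.9 of Plk2 (95.63 to 98.53), 25.45 of Mybl1 (12.78 to 14.89) and 191.5 of Spc25 (140.1 to 144.3). It held less of Heatr3, 102.3 CPM (110.1 to 110.5), and of H2-D1, 28.06 (33.4 to 34.04). Its value lay further from wild type than those of the other 3 libraries in each of these 6 genes.

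At L2C the distant knockout libraries were library 4 for Mybl1 (101.4 CPM), library 2 for Tdpoz4 (173.7), library 3 for Nat10 (38.5), and library 1 for Ogt (214.2), Apoe (14.73) and Cxcl10 (4.466). In wild type they were L2C library 1 for Gata3 (3.438 CPM), L2C library 4 for Ldhb (303.3) and morula library 4 for Apoe (18.78).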

How the results depend on the processing

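The interaction was called in 1829 to 2689 genes under other scalings, filters, DESeq2, the replicate block and the 16 libraries alone (2010 as reported); DESeq2 called 1219 lower. Requiring a log2 change of at least 1 left 1032 (170 lower). Leaving out 1 library gave 1339 to 2185 calls (506 to 916 lower), the fewest without knockout morula library 4. Without the wild-type libraries with an additional index 646 were called (473 higher, 173 lower), and at morula 1986 (1200 higher, 786 lower). A log2 change of at least 1 at morula left 1567 (1374 higher, 193 lower). The share of interaction calls that were higher was 60.5%, and 55.9% to 66.4% over the scalings.

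At L2C, 6 genes were called as reported, 25 by DESeq2 (14 higher, 11 lower), 188 without a filter (113 higher, 75 lower), 3 in the 16 libraries alone (2 higher, 1 lower) and 2 without the additional-index libraries (2 higher, 0 lower). A log2 change of at least 1 left 2 higher. Leaving out 1 library gave 2 to 25 (2 to 16 higher, 0 to 9 lower). DESeq2 called 155 genes between the Zfp622 and Ttf1 stage changes. By the Ttf1 stage change 271 falling genes were lower and 353 rising genes higher. The cause of these shifts was not tested. No tested result changed direction. Small list medians did: those of oxidative phosphorylation genes (-0.051) and primitive endoderm genes (-0.0178) became 0.0165 and 0.0464 without the additional-index libraries. Leaving out 1 library turned the medians of the interferon response (0.165, -0.0304 without wild-type L2C library 2), the integrated stress response (-0.0428, 0.00678 without knockout L2C library 4), oxidative phosphorylation (0.00161 without knockout L2C library 3) and the primitive endoderm (0.00525 to 0.0861 in 7 cases), the last also with total counts (0.00227).

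With the replicate number as a block 1829 genes were called, 1770 of them shared with the reported set. The labels do not say that the numbers pair libraries, and deviations of same-numbered libraries correlated at -0.244 to 0.0899 over 24 pairs, so the numbers were not treated as pairing. In the simulation most changes of 1.5-fold were missed, with 124 genes called. The data gave 2010 calls, which makes the adjusted cutoff less strict, so the simulated rate does not carry over to them.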
